A study of Mus musculus with 6 samples.

Results

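Avp, Oxt, Pmch, Trh, Sst, Npy, Cck, Penk and Tac1 encode precursors of brain neuropeptides, and Ttr encodes transthyretin, the thyroid hormone carrier of the cerebrospinal fluid. These 10 genes were selected on their levels in these same libraries and on their KO against WT values, then looked up by symbol among the 16729 genes of the deposited count table, where all 10 were found. The libraries were made from whole intracranial tumors of mG7080 cells, a mouse gliomasphere culture, grown in C57BL/6 hosts (C57BL/6J by the methods). In 3 tumors the host was wild-type (WT 1, WT 2 and WT 3) and in 3 it is labelled as Esm1 knockout (KO 1, KO 2 and KO 3), and the implanted cells were the same in both groups. Esm1 encodes Endocan, a proteoglycan secreted by vessel cells, and it was deleted throughout the host but not in the implanted cells. Hosts were 6 to 8 weeks old by the methods and 8 to 12 weeks by the reporting summary, and the labels give no age. Each library is labelled as 1 tumor and holds RNA of tumor cells mixed with RNA of whatever host brain was taken with it.

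Neuropeptide precursors are made in the cell bodies of particular neurons, packed in dense-core vesicles, cut into active peptides by prohormone convertases and released to act on receptors coupled to G proteins. Because each precursor is made strongly by neurons of a few brain regions, the peptides differ in where their mRNA is found. Avp and Oxt are transcribed most strongly in the magnocellular neurons of the hypothalamus, Pmch in the lateral hypothalamus, and Trh in hypothalamic and some other nuclei. Sst and Npy mark inhibitory interneurons of cortex and striatum, Cck is abundant in cerebral cortex, and Penk and Tac1 are made by the projection neurons of the striatum. In the brain, Ttr is the signature transcript of the epithelium of the choroid plexus, which lies within the ventricles.

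Avp and Oxt lie beside each other on mouse chromosome 2 of GRCm38, the build named in the labels as mm10. GENCODE places Oxt at chr2:130576173-130577054 on the plus strand and Avp at chr2:130580620-130582554 on the minus strand, with 3565 bases between their facing 3′ ends. The other peptide genes lie apart, Pmch at chr10:88091072-88092375, Sst at chr16:23889573-23890958, Cck at chr9:121489824-121495694 and Penk at chr4:4133531-4138819. Trh at chr6:92242061-92244650, Npy at chr6:49822710-49829507 and Tac1 at chr6:7554879-7565834 share chromosome 6 without being neighbours. All of these are annotated as protein-coding genes. The 150 bases before the start of Avp and of Oxt are shown because this neighbouring pair had the most uneven levels of the peptide genes. Both are RefSeq sequences of GRCm38.p6, written 5′ to 3′ on the strand of the gene, and capitals mark the palindrome CACGTG, an E-box.
Avp, chr2:130582589-130582738, minus strand: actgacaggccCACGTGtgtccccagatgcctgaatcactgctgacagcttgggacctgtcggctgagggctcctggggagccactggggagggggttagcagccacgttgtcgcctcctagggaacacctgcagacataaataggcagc
Oxt, chr2:130576019-130576168, plus strand: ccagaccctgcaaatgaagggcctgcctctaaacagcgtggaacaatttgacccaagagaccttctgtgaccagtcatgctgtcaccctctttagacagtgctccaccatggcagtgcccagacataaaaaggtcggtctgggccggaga

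Stretches of 30 bases are shown for 4 further genes, with the matched letters in capitals. They carry the cyclic AMP response element TGACGTCA in Sst, its core CGTCA in Cck and Tac1, and TATAAA in Pmch.
Sst, chr16:23890874-23890903, minus strand: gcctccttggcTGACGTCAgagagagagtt
Cck, chr9:121495725-121495754, minus strand: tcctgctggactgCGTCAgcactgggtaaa
Tac1, chr6:7555006-7555035, plus strand: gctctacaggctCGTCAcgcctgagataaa
Pmch, chr10:88091033-88091062, plus strand: agacagaaagtaTATAAAggtggggatcat

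These motifs were chosen after the sequences had been seen. They were searched on both strands from 250 bases before to 50 after each RefSeq start. For Sst and Tac1 this start lies inside the gene span given above from GENCODE, and so do the stretches shown. Usable windows were at hand for 8 of the 10 genes (not for Penk and Ttr). TGACGTCA was in 1.79% of all 32851 promoters and in Sst, at -48 to -41 from the start. CGTCA, which also lies inside TGACGTCA, was in 20.8% of all promoters and in Sst, Cck, Tac1 and Trh. CACGTG was in 7.15% and in Avp, Cck and Tac1, and TATAAA was in 13.6% and in Pmch. Npy and Oxt held none of these letter runs in that window. Genes that hold the same letters include pairs with a like order of libraries (Sst and Cck) and pairs with unlike orders (Avp and Cck).

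The libraries held 17632070 to 22241832 counts, and 1 read was worth 0.0445 to 0.0570 counts per 1000000 counts (CPM, on library sizes scaled by TMM). The count of Esm1 was 25 in WT 1, 21 in WT 2, 82 in WT 3, 1 in KO 1, 24 in KO 2 and 4 in KO 3. The library labelled KO 2 thus held as many Esm1 counts as WT 1 and WT 2. Its label may be wrong, or the counts may be of the implanted cells, which kept the gene, and these cannot be told apart. The library is called KO 2 throughout by its label, KO means of n = 3 include it, and the fold changes are given with and without it. The edgeR log2 fold change of Esm1 was -2.20 over all 6 libraries (adjusted p = 0.192) and -3.90 without KO 2 (adjusted p = 0.0226). The libraries also differed in neuronal and in proliferation transcripts. The summed level of 10 pan-neuronal genes was 4203 CPM in WT 1, 1252 in WT 2, 2275 in WT 3, 8866 in KO 1, 3115 in KO 2 and 10831 in KO 3. The summed level of 8 proliferation genes was 1137, 1999 and 1940 CPM in the WT libraries and 102, 1253 and 14.8 CPM in KO 1, KO 2 and KO 3. Fits without KO 2 therefore also set libraries with little proliferation RNA against libraries with much of it. Nothing in the labels says whether the tumors of a group came from separate litters or days, so a spread between libraries may be in part technical.

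**Figure D1:**
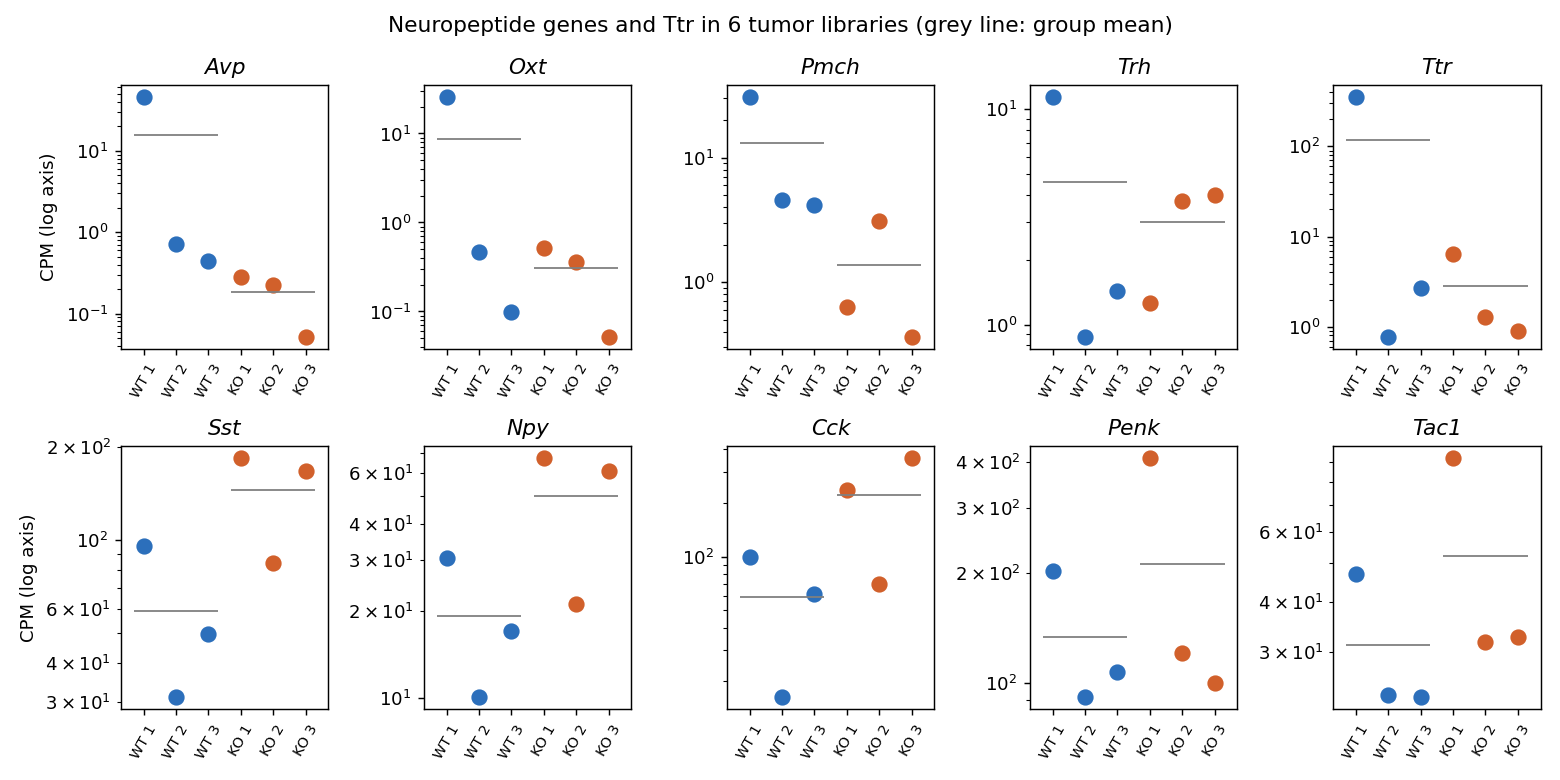
Level of each of the 10 genes (y axis, CPM on a log axis with a range of its own in each panel) in the 6 tumor libraries (x axis), with WT hosts in blue, KO hosts in orange and a grey line at each group mean. In the top row the WT 1 point stands above all others (Avp 45.9 CPM against at most 0.724), while Sst, Npy and Cck in the bottom row are highest in KO 1 and KO 3, and Penk and Tac1 in KO 1.

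The genes fell into a set that was far higher in WT 1 than in any other library (Avp, Oxt, Ttr, Pmch and, less strongly, Trh) and a set that was highest in KO 1 or KO 3 (Sst, Npy, Cck, Penk and Tac1). In bulk tissue fewer cells of a type and less RNA per cell cannot be told apart, so every value below is a level in the sampled tissue.

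Avp encodes the precursor of vasopressin, the antidiuretic hormone. Its level was 45.9 CPM in WT 1, 0.724 in WT 2, 0.444 in WT 3, 0.285 in KO 1, 0.223 in KO 2 and 0.0521 in KO 3. WT 1 alone was high, with 965 counts against 14 in WT 2 and 1 to 9 in the other 4 libraries. The WT 1 level was 63.5-fold that of WT 2 (exact 95% interval 37.6 to 117, counting error alone), and WT 1 held 96.4% of the Avp level summed over the 6 libraries. Outside WT 1 the counts were too few for a full order of the libraries. The interval of WT 3 (0.203 to 0.843 CPM) overlapped that of KO 1 (0.0926 to 0.666 CPM). That of WT 2 (0.396 to 1.21 CPM) lay above that of KO 3 (0.00132 to 0.290 CPM).

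Oxt encodes the precursor of oxytocin. It stood at 25.7 CPM in WT 1, 0.465 in WT 2, 0.0987 in WT 3, 0.513 in KO 1, 0.356 in KO 2 and 0.0521 in KO 3. WT 1 had 541 counts and no other library more than 9. The second highest library was KO 1, and WT 1 was 50.1-fold above it (exact 95% interval 26.2 to 110). The ratio of Avp to Oxt was 1.78 in WT 1, and in the other libraries it rested on 1 to 14 counts of each gene.

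Ttr was 354 CPM in WT 1 (7439 counts), 0.775 in WT 2, 2.71 in WT 3, 6.33 in KO 1, 1.29 in KO 2 and 0.885 in KO 3. The WT 1 level was 55.9-fold that of KO 1, the next library (exact 95% interval 46.4 to 68.1), and 96.7% of the summed level was in WT 1. Among the other 5 libraries the WT and KO values were interleaved, and the highest of them was a KO library.

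Pmch encodes the precursor of melanin-concentrating hormone, a peptide of feeding and sleep. Its level was 30.6 CPM in WT 1, 4.55 in WT 2, 4.14 in WT 3, 0.627 in KO 1, 3.12 in KO 2 and 0.364 in KO 3. WT 1 was 6.74-fold above WT 2 (exact 95% interval 5.39 to 8.52) and held 70.5% of the summed level. Outside WT 1 the Pmch counts were 88 in WT 2, 84 in WT 3 and 70 in KO 2, against 11 in KO 1 and 7 in KO 3. WT 2, WT 3 and KO 2 thus lay close together, and the 2 libraries with the least proliferation RNA, KO 1 and KO 3, lay below them, and the part of proliferation in this was not tested.

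Trh encodes the precursor of thyrotropin-releasing hormone, which drives the pituitary-thyroid axis. It was 11.4 CPM in WT 1, 0.879 in WT 2, 1.43 in WT 3, 1.25 in KO 1, 3.74 in KO 2 and 4.01 in KO 3. WT 1 was 2.85-fold above KO 3 (exact 95% interval 2.20 to 3.73) and held 50.2% of the summed level. KO 2 and KO 3 were also above the remaining libraries, and their counting intervals (2.98 to 4.63 and 3.16 to 5.01 CPM) did not overlap those of WT 2, WT 3 or KO 1, which reached at most 2.05 CPM. Trh therefore had a different order of libraries from Avp, Oxt, Ttr and Pmch below the highest value.

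These gaps were set beside those of all genes. Of 13810 genes with at least 5 CPM in some library, Avp had the largest ratio of highest to second highest library, Ttr the second largest, Oxt the third, Pmch was in place 6 and Trh in place 37. The median ratio was 1.10, and 162 genes (1.17%) had a ratio of at least 2. WT 1 was the highest library in 18 of those 162 genes and in 6 of the 8 genes with a ratio of at least 5. Among all genes with at least 5 CPM in some library, WT 1 was the highest in 2.96%. Penk (2.04) and Tac1 (1.95), both highest in KO 1, were near the ratio of 2, and Cck (1.52), Npy (1.12) and Sst (1.11) had smaller gaps. This ranking was set up after the levels had been seen, and it describes these 6 libraries without a test.

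**Figure D2:**
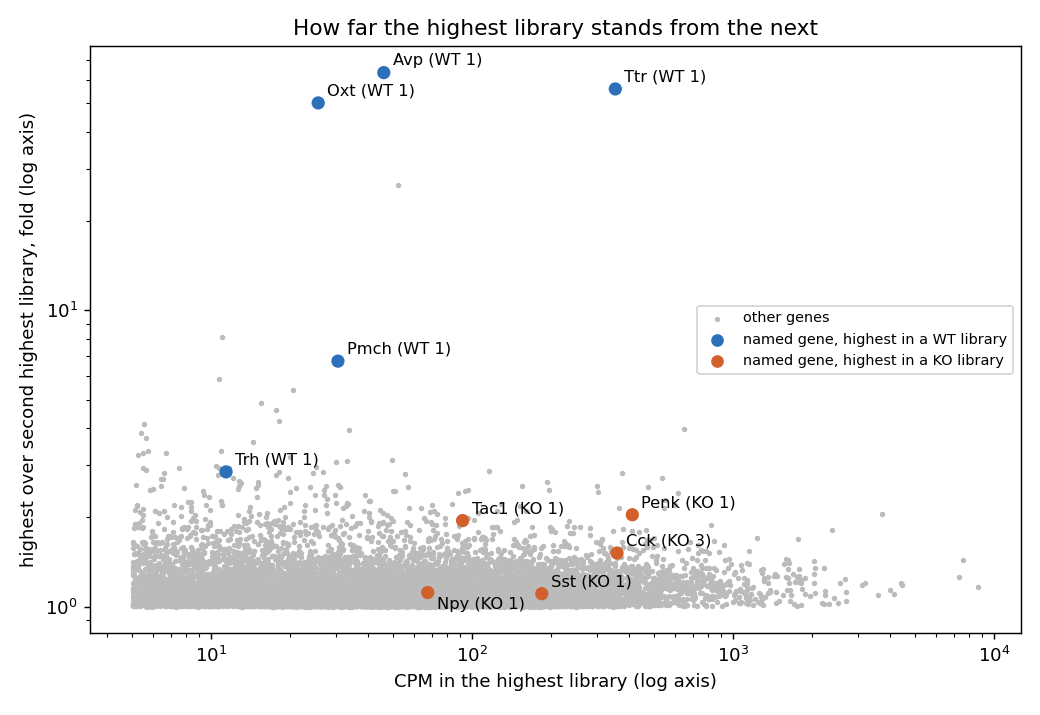
Ratio of the highest to the second highest library (y axis, fold, log axis) against the CPM of the highest library (x axis, log axis) for the 13810 genes with at least 5 CPM in some library (grey points), with the 10 genes in color and their highest library in brackets. Avp, Ttr and Oxt lie at 50.1-fold to 63.5-fold and Pmch at 6.74-fold, while the median gene is at 1.10-fold.

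Other transcripts of the choroid plexus were also highest in WT 1. Of a list of 23 genes, 19 were in the table, and 16 of those 19 were highest in WT 1. F5, Kl and Prlr were among the genes most correlated with Avp, Oxt or Ttr over the 6 libraries, so they do not stand for the rest of the list. F5, which encodes coagulation factor V, was at 10.99 CPM in WT 1 and 0.827 to 1.35 CPM elsewhere. Kl, the gene of the anti-ageing protein Klotho, was at 20.6 CPM in WT 1 and 1.13 to 3.82 CPM elsewhere. Prlr, the prolactin receptor, was at 18.3 CPM in WT 1 against 0.444 to 4.34 CPM, and the channel subunit Kcne2, named after its values were seen, at 3.14 against 0.114 to 0.258 CPM. Enpp2, the most abundant gene of the list, is also strong in oligodendrocytes, and it was 432 CPM in WT 1 and 81.5 to 315 CPM elsewhere. Without Enpp2 the list summed to 145 CPM in WT 1 and 51.6 to 69.1 CPM in the other 5 libraries. Ttr exceeded this gap by far. Per 1000 CPM of the list without Enpp2, it was 2441 in WT 1 and 12.8 to 93.8 elsewhere. Folr1, Slc4a5, Tmem72 and Lmx1a, 4 further choroid plexus genes, are not listed in the table, which holds only genes with a count in at least 4 libraries.

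Hypothalamic transcription factors did not share the pattern of Avp and Oxt as a list. Of 15 such genes 7 were in the table, and 1 of these 7 was highest in WT 1. That gene was Nkx2-1, a determinant of ventral forebrain, at 5.09 CPM in WT 1, 1.96 in WT 2, 1.58 in WT 3, 2.68 in KO 1, 2.00 in KO 2 and 0.417 in KO 3. Six3 was 18.4 CPM in WT 1 but 30.8 CPM in KO 1, and Arnt2, the most abundant of the list and broadly neuronal, ranged from 221 to 520 CPM with its highest value in KO 3. Sim1 and Otp, which specify the neurons that make Avp and Oxt, are among the 8 not listed. Only genes with a count in at least 4 libraries are listed, so a gene read in WT 1 alone would be missing. The absence of these 8 therefore says nothing about WT 1. The name hypothalamus was not used for the WT 1 tissue. None of 8 anterior pituitary genes, such as Gh and Prl, is listed, and the same limit holds for them. Of 8 plasma protein genes of the liver, which also makes Ttr, Apoa2 and Rbp4 are listed. Their summed level was 8.90 CPM in WT 1 and 8.59 to 15.3 CPM elsewhere.

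The genes whose levels were most like those of the WT 1 set were taken by Pearson correlation of log2(CPM + 1) over the 6 libraries, among 2639 genes that spanned at least 2 log2 units and reached 5 CPM. F5 was the nearest gene to Avp (r = 0.97), Oxt (r = 0.98) and Ttr (r = 0.95). The next for Avp were Gabrq, a GABA receptor subunit, Sytl4, an exocytosis protein of secretory granules, the kinase Dgkk and the calcitonin receptor Calcr. Gabrq was 15.6 CPM in WT 1 and 0.987 to 3.21 CPM elsewhere, and Calcr was 5.47 CPM in WT 1 and 0 to 1.87 CPM elsewhere. For Oxt they were Gabrq, Dgkk, Kl and Prlr, and for Ttr Kl, the choroid plexus chloride channel gene Clic6, Gabrq and Dgkk. All of these correlations share the single point of WT 1. Without it, r was -0.97 between Avp and F5 and -0.17 between Ttr and F5, while it was 0.88 between Avp and Sytl4, 0.95 between Oxt and Dgkk, 0.87 between Oxt and Prlr and 0.72 between Ttr and Clic6.

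Pmch and Trh had other near neighbours. Sytl4 followed Pmch with r = 0.99 over 6 libraries and r = 0.98 without WT 1, at 7.57 CPM in WT 1, 2.58 in WT 2, 2.02 in WT 3, 0.913 in KO 1, 1.69 in KO 2 and 0.625 in KO 3. Calcr came next, followed by Parpbp, a DNA repair gene (r = 0.89, and 1.00 without WT 1), Agt, which encodes angiotensinogen (r = 0.89, and 0.99 without it), and Serpina3n. Parpbp was 28.9 CPM in WT 1, 16.6 in WT 2, 15.1 in WT 3, 2.00 in KO 1, 13.2 in KO 2 and 1.30 in KO 3. The use of strand in counting is not settled, and whether Pmch and Parpbp share reads was not tested. Trh was most like Cbln1, a synaptic organizer (r = 0.92, and 0.88 without WT 1), and Slc17a6, the vesicular glutamate transporter of thalamus, hypothalamus and brainstem (r = 0.91, and 0.80 without WT 1), followed by Kl, F5 and Gabrq. Slc17a6 was 40.5 CPM in WT 1, 6.31 in WT 2, 4.59 in WT 3, 12.3 in KO 1, 17.8 in KO 2 and 17.6 in KO 3. Like Trh it was highest in WT 1, with KO 2 and KO 3 next, but KO 1 was above WT 2 and WT 3 in Slc17a6 and below WT 3 in Trh.

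**Figure D3:**
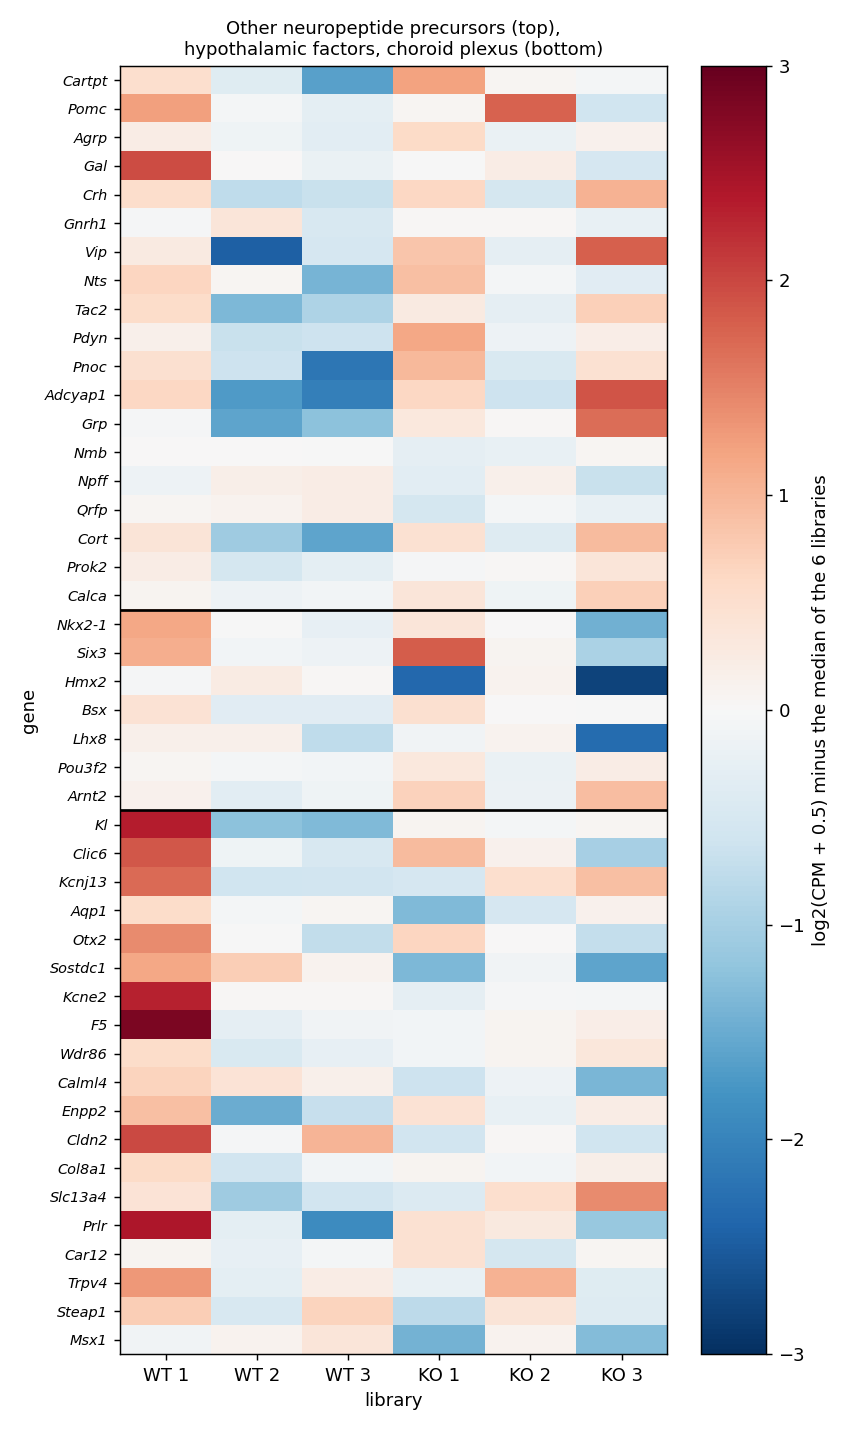
Heat map of log2(CPM + 0.5) minus the median of the 6 libraries (color scale) for the listed neuropeptide precursors (top block), hypothalamic transcription factors (middle block) and choroid plexus genes (bottom block), with 1 column per library. The choroid plexus block is reddest in WT 1, where 16 of its 19 genes are highest, while 9 of the 19 other neuropeptide precursors are highest in KO 3.

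Sst, Npy and Cck were highest in KO 1 and KO 3. Sst encodes somatostatin, an inhibitory peptide of interneurons, and was 95.9 CPM in WT 1, 31.0 in WT 2, 49.7 in WT 3, 185 in KO 1, 84.1 in KO 2 and 167 in KO 3. Npy encodes neuropeptide Y, often made by the same interneurons, and was 30.3 CPM in WT 1, 10.03 in WT 2, 17.1 in WT 3, 67.7 in KO 1, 21.1 in KO 2 and 60.7 in KO 3. Both genes put the 6 libraries in the same order, KO 1, KO 3, WT 1, KO 2, WT 3 and WT 2, so the KO 2 value lay among the WT values. Cck encodes cholecystokinin and was 99.3 CPM in WT 1, 16.2 in WT 2, 61.7 in WT 3, 237 in KO 1, 70.7 in KO 2 and 359 in KO 3. Cck had the same order but for its top pair, where KO 3 was 1.52-fold above KO 1 (exact 95% interval 1.46 to 1.58).

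Penk and Tac1 were high in KO 1 but not in KO 3. Penk encodes proenkephalin, the opioid precursor of striatal neurons of the indirect pathway, and was 201 CPM in WT 1, 91.4 in WT 2, 107 in WT 3, 411 in KO 1, 121 in KO 2 and 100.1 in KO 3. Tac1 encodes the precursor of substance P, made by striatal neurons of the direct pathway, and was 47.2 CPM in WT 1, 23.4 in WT 2, 23.1 in WT 3, 92.0 in KO 1, 31.9 in KO 2 and 32.7 in KO 3. In both genes KO 1 was first and WT 1 second, and the other 4 libraries, WT and KO mixed, lay below. The ratio of Penk to Tac1 was 3.06 to 4.65 over the 6 libraries and that of Sst to Npy 2.74 to 3.996. The ratio of Cck to Penk was 0.178 to 0.586 in 5 libraries and 3.59 in KO 3.

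These 5 genes were next divided by the summed pan-neuronal level of the same library, a ratio chosen after the levels had been seen. Per 1000 pan-neuronal CPM, Npy ranged from 5.60 to 8.01, a 1.43-fold range against 6.75-fold in CPM. Sst ranged from 15.5 to 27.0, or 1.75-fold against 5.98-fold in CPM. Cck ranged from 13.0 in WT 2 to 33.2 in KO 3, or 2.56-fold against 22.1-fold. The group means of Npy on this scale were 7.58 ± 0.405 in WT and 6.66 ± 1.02 in KO (SD, n = 3 each), and those of Sst were 23.1 ± 1.47 and 21.1 ± 5.78. The WT and KO ranges overlapped for Npy, Sst and Cck on this scale.

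Penk and Tac1 did not become even in this way. Per 1000 pan-neuronal CPM, Penk was 38.7 to 73.0 in 5 libraries and 9.24 in KO 3, a wider range than in CPM (7.90-fold against 4.50-fold). Tac1 was 10.1 to 18.7 in those 5 libraries and 3.02 in KO 3. KO 3 was thus the low library for both striatal peptides relative to its neuronal RNA, while its Cck was the highest.

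**Figure D4:**
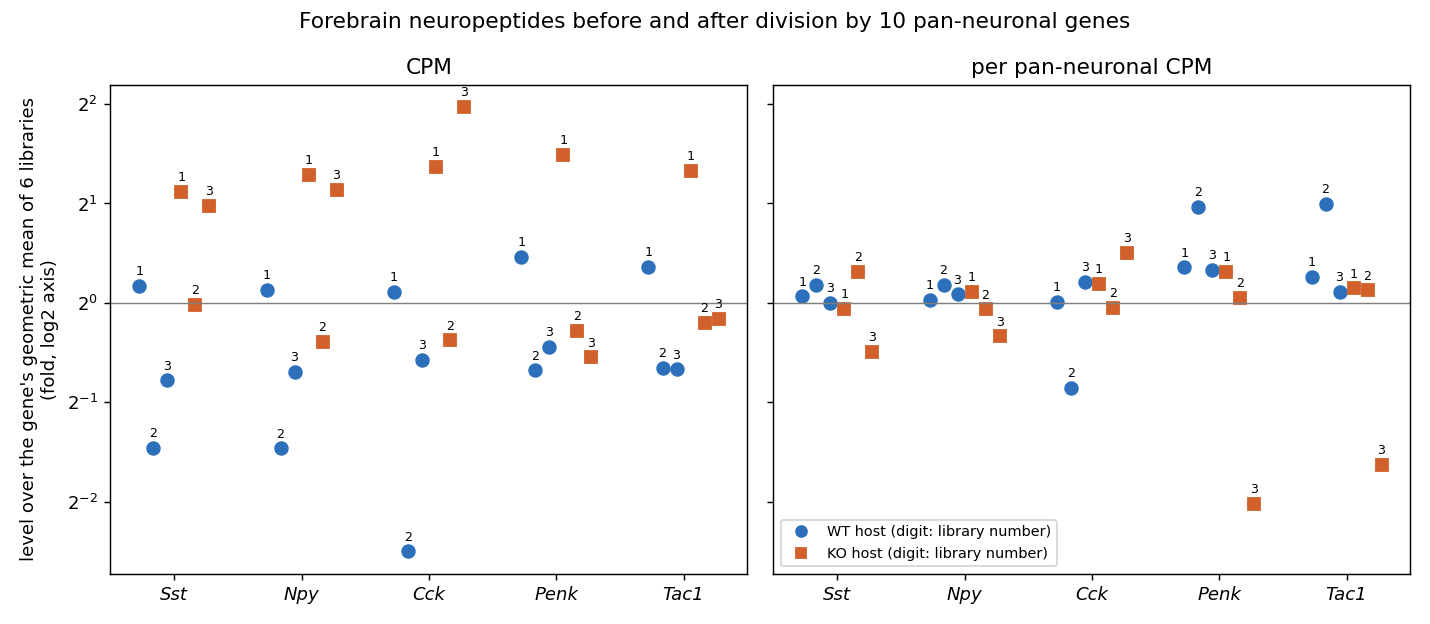
Level of Sst, Npy, Cck, Penk and Tac1 in each library relative to the gene's geometric mean over 6 libraries (y axis, fold, log2 axis), in CPM (left) and per pan-neuronal CPM (right), with the library number above each point. Sst and Npy draw together on the right (ranges of 1.75-fold and 1.43-fold), while the KO 3 points of Penk and Tac1 fall far below the rest.

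Lists of genes of the same neurons followed the same split. They had no part in the choice of the peptides but were drawn up with earlier results of these libraries known. Of a list of 9 striatal genes 8 were listed. The symbol Drd1 was not found, and the reason was not tested. The 8 genes summed to 929 CPM in WT 1, 416 in WT 2 and 606 in WT 3. In KO 1, KO 2 and KO 3 they summed to 2207, 496 and 522 CPM, and each of the 8 was highest in KO 1. Ppp1r1b, the phosphatase inhibitor DARPP-32, was 618 CPM in KO 1 and 116 to 255 CPM elsewhere, and the phosphodiesterase Pde10a was 601 and 113 to 272 CPM. A list of 11 cortical genes was highest in KO 3 for 10 genes, and it summed to 773, 229 and 523 CPM in the WT libraries and 1861, 678 and 2774 CPM in KO 1, KO 2 and KO 3. Slc17a7, the cortical vesicular glutamate transporter, reached 1771 CPM in KO 3 and 1044 CPM in KO 1 against 109 to 412 CPM elsewhere. Per 1000 pan-neuronal CPM the striatal list was 159 to 333 in 5 libraries and 48.2 in KO 3, and the cortical list was 183 to 256 in all 6.

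Set against these lists, the peptides were close to even over the libraries. Per 1000 CPM of the striatal list, Penk was 177 to 243, a 1.37-fold range, and Tac1 was 38.1 to 64.3, a 1.69-fold range. Per 1000 CPM of the cortical list, Cck was 70.9 to 130 (1.83-fold). Per 1000 CPM of 15 genes of GABA neurons and interneurons, Sst was 67.3 to 114 (1.69-fold) and Npy 21.8 to 40.9 (1.88-fold). The WT and KO values overlapped on these scales for Penk, Tac1, Cck and Npy. For Sst the KO values (101 to 114) lay just above the WT values (67.3 to 98.7). In CPM 13.3% of all genes lay higher in KO without overlap. No such share was taken on these scales, so nothing is read from the Sst values. These ratios were chosen with the levels known and are a description of 6 libraries.

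**Figure D5:**
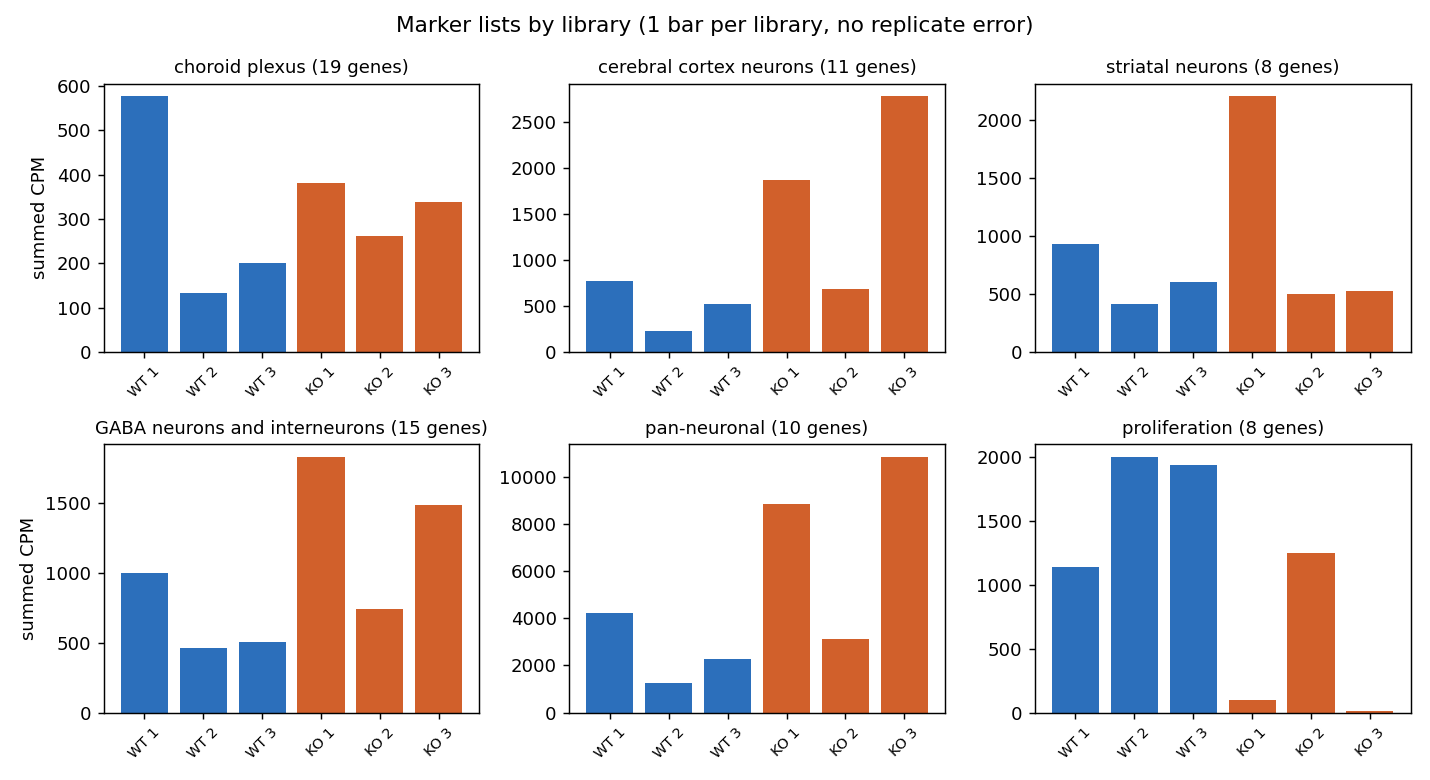
Summed CPM (y axis, from 0) of 6 marker lists in each library (x axis, 1 bar per library, so no error bar), with WT hosts in blue and KO hosts in orange. The striatal list is highest in KO 1 (2207 CPM) and low in KO 3 (522 CPM), the cortical and pan-neuronal lists are highest in KO 3, the choroid plexus list is highest in WT 1 (577 CPM), and the proliferation list is lowest in KO 3 (14.8 CPM).

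The comparison of the groups asks how the tumors differed between hosts with and without Esm1. For Oxt, Ttr and Trh the lower mean in KO was not seen without WT 1, while Pmch and Avp were lower in KO with or without it. For Avp the log2 ratio of the KO to the WT mean was -6.39, and -1.65 without WT 1. The second value rested on 1 to 14 counts per library. Outside WT 1 Pmch moved with Parpbp (r = 1.00), and whether they share reads was not tested. Avp had means of 15.7 ± 26.2 CPM in WT and 0.187 ± 0.121 CPM in KO, Oxt of 8.77 ± 14.7 and 0.307 ± 0.235 CPM, and Ttr of 119 ± 203 and 2.84 ± 3.03 CPM (SD, n = 3 each). The WT SD exceeded the WT mean in each, and likewise for Pmch (13.1 ± 15.2 and 1.37 ± 1.52 CPM) and Trh (4.58 ± 5.93 and 3.00 ± 1.52 CPM). The log2 fold change of KO against WT (edgeR, SE in brackets) was -5.40 (2.38) for Ttr, -3.24 (1.17) for Pmch and -0.61 (1.02) for Trh. Without WT 1 it was 0.67 (1.07) for Ttr, 1.35 (0.63) for Trh and -1.68 (0.92) for Pmch, so the direction turned for Ttr and Trh. Without KO 2 it was -5.05 (2.78) for Ttr, -4.71 (1.26) for Pmch and -0.79 (1.18) for Trh. With WT 2, WT 3, KO 1 and KO 3 alone, Pmch was at -3.13 (0.38). Avp and Oxt did not pass the filter on low counts over 6 libraries. Fitted without that filter they were at -6.35 and -4.82, and without KO 2 Avp was tested, at -6.52 (2.78). Without WT 1 the WT means were 0.584 ± 0.198 CPM for Avp and 0.282 ± 0.259 CPM for Oxt (SD, n = 2).

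For the second set the KO means were higher, at 146 ± 53.9 CPM against 58.8 ± 33.4 CPM for Sst, 49.8 ± 25.1 against 19.1 ± 10.3 CPM for Npy, and 222 ± 145 against 59.1 ± 41.6 CPM for Cck (SD, n = 3 each). Penk was 211 ± 174 CPM in KO and 133 ± 59.5 CPM in WT, and Tac1 was 52.2 ± 34.5 and 31.2 ± 13.8 CPM. The log2 fold changes were 1.30 (SE 0.48) for Sst, 1.37 (0.56) for Npy, 1.91 (0.81) for Cck, 0.65 (0.62) for Penk and 0.73 (0.52) for Tac1. Without KO 2 they were 1.59 (0.45), 1.75 (0.43), 2.34 (0.68), 0.94 (0.62) and 1.00 (0.51). Penk turned to -0.29 without KO 1, its highest library. The pan-neuronal genes moved with these values, at log2 fold changes of 1.29 to 1.72 over 6 libraries, and the part of neuronal content in the group values was not tested.

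The WT and KO values did not overlap for 2 of the 10 genes over all 6 libraries, Avp and Pmch, both lower in KO (background 14.3% of all genes lower and 13.3% higher in KO). For Avp this rests on 9 counts in WT 3 against 5 in KO 1, whose counting intervals overlap. Without KO 2 they also did not overlap for Sst, Npy and Cck, all higher in KO (background 37.3% higher and 39.7% lower). None of the 8 genes that passed the filter was called by edgeR at an adjusted p below 0.05, where 0% of 16166 genes was called. At an unadjusted p below 0.05 there were 2462 genes higher and 1923 lower, DESeq2 called 709 higher and 410 lower, the edgeR exact test called 66 and 39, and limma-voom called none. DESeq2 called 1 of the 10 genes, Pmch, as lower, and the exact test and limma-voom called none of them. Without KO 2, edgeR called Sst, Npy and Cck higher and Pmch lower among 9 tested (background 24.5% higher and 28.3% lower). Since the 10 genes were chosen with this contrast known, these counts describe them and support nothing.

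Genes that receive, process or accompany these peptides were taken from lists that had no part in choosing the 10 genes but were drawn up with earlier results of these libraries known. Over all 18 lists 161 genes were tested with 6 libraries. The edgeR quasi-likelihood test called 0 of these 161, the edgeR exact test 2 higher and DESeq2 12 higher, and 36 were higher and 5 lower at an unadjusted p below 0.05. Without KO 2, edgeR called 58 of 163 higher and 22 lower (background 24.5% higher and 28.3% lower).

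None of the 18 tested receptors of the peptides was called over 6 libraries. Over these 17 of 18 had a log2 fold change above 0, with a median of 1.31 against -0.02 over all genes tested, and without KO 2 edgeR called 11 of 18 higher and 0 lower (background 24.5% and 28.3%). The 10 pan-neuronal genes had a median of 1.53, all above 0, and all 10 were called higher without KO 2. The summed receptor level was 60.1 to 153 CPM in WT and 134 to 367 CPM in KO, with KO 2 below WT 1, and the part of neuronal content in it was not tested. Cckbr, the brain receptor of cholecystokinin, was 22.6, 5.63 and 15.5 CPM in the WT libraries and 55.1, 23.5 and 85.3 CPM in KO 1, KO 2 and KO 3. Its log2 fold change without KO 2 was 2.27 (SE 0.54, edgeR adjusted p = 0.0198). The somatostatin receptor Sstr3 was 12.3, 4.75 and 7.35 CPM in WT and 28.0, 11.7 and 43.8 CPM in KO, and its value without KO 2 was 2.14 (SE 0.41, edgeR adjusted p = 0.0129). Sstr1 ranged from 4.96 CPM in WT 2 to 53.5 CPM in KO 3. The receptors of the WT 1 peptides were not highest in WT 1 as a group. Oxtr was 6.19 CPM in WT 1 and 15.4 CPM in KO 3, Mchr1 was 10.8 CPM in WT 1 and 28.7 CPM in KO 1, and Avpr1a alone of them, at 1.33 CPM, was highest in WT 1. These receptor genes were named after their values were seen, apart from Cckbr, Sstr1 and Sstr3.

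Peptide processing genes gave a like count, with 13 of 14 above 0 (median 1.29) and, without KO 2, 9 called higher and 1 lower (background 24.5% and 28.3%). Cpe, carboxypeptidase E, which trims the cut peptides, was 1401, 728 and 827 CPM in WT 1 to WT 3 and 2287, 1385 and 2442 CPM in KO 1 to KO 3. Chgb, a granin of dense-core vesicles, was 242, 75.6 and 115 CPM in WT and 497, 199 and 602 CPM in KO. Pcsk1n, an inhibitor of the convertase encoded by Pcsk1, was 250, 126 and 150 CPM in WT and 477, 270 and 434 CPM in KO. The gene called lower was Qpct, glutaminyl cyclase, with a log2 fold change of -0.93 (SE 0.21, edgeR adjusted p = 0.0179) without KO 2. In CPM the dense-core vesicle genes were thus not highest in WT 1, the library with the most Avp and Oxt.

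Of 31 other neuropeptide precursors 19 were in the table and 15 were tested, with 12 above 0 over 6 libraries (median 0.79) and 2 called higher without KO 2, Pdyn and Grp (background 24.5%). Pdyn, the dynorphin precursor of striatal neurons, was highest in KO 1 (66.3 CPM) like Penk and Tac1, and was 18.2 to 34.0 CPM elsewhere. Vip and Adcyap1, peptides of cortical neurons among other sites, were highest in KO 3 (49.9 and 27.2 CPM) like Cck. Gal, the galanin precursor and the gene highest in WT 1 among these 19, was 2.81 CPM there and 0.104 to 0.490 CPM elsewhere, and it did not pass the filter. Pomc and Agrp, made in the arcuate nucleus, did not share the WT 1 pattern. Pomc was 5.85 CPM in WT 1 but 8.77 CPM in KO 2, and Agrp was 1.67 CPM in WT 1 and 2.22 CPM in KO 1. Hcrt, the hypocretin precursor of the lateral hypothalamus, is among the 12 not listed. Gal, Grp, Pomc and Agrp were named after their values were seen.

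Levels were compared between genes per length, in FPKM of the authors. The mean over 6 libraries was highest for Cck (190 FPKM), followed by Sst (163), Penk (119), Npy (60.1), Ttr (51.2), Tac1 (39.4), Avp (16.1), Pmch (10.04), Oxt (8.62) and Trh (2.74). The order differed by library. In WT 1 Ttr led at 297 FPKM, with Avp at 92.9 and Oxt at 48.9 FPKM, beside Sst at 164, Cck at 147 and Penk at 146 FPKM. In KO 3 Cck led at 449 FPKM, Ttr was at 0.626, and Avp and Oxt were below 0.1 FPKM. The spread of each gene over the libraries was larger than the step to its neighbour in this order, so neighbours were not told apart.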

How the data were processed

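RNA-seq of 6 tumors (3 WT, 3 Esm1 KO hosts) was read from 1 deposited table. It holds raw counts and FPKM per gene, made by the authors, per the labels from total RNA with a NEBNext Ultra kit, CASAVA 1.8.2, mm10 and edgeR. The study's methods name another kit, HTSeq on uniquely mapped reads and a human build, its reporting summary names STAR, and whether strand was used is not settled, so overlapping genes are uncertain. The deposited fold changes and p-values of the authors' own comparison were not used. Counts were scaled by TMM to CPM and fitted with edgeR 4.0.16 (quasi-likelihood, filterByExpr with a minimum count of 10 and total of 15, Benjamini-Hochberg adjustment, R 4.3.3). Genes read in fewer than 4 libraries, or with no count of 5 or more, are not listed. Depth was 17632070 to 22241832 counts, and 3 counts stand for 0.134 to 0.171 CPM. Intervals on counts (exact, 95%) cover counting error alone. On simulated counts the fit recovered 57% of 2-fold and 100% of 8-fold changes, with 10 false calls. No simulated library departed from its group as WT 1 and KO 2 did here, so these shares do not hold for the present data. DESeq2 1.42.0, the edgeR exact test, limma-voom (limma 3.58.1), other scalings and filters, and left-out libraries were alternatives. The 10 genes and the lists were chosen with earlier results of these data known. Genes named were the 10, up to 3 of highest mean CPM per list plus any called over 6 libraries, the 5 most correlated with each of Avp, Oxt, Pmch, Trh and Ttr, and Esm1. Any other was named after its values were seen. Positions are from GENCODE and sequences from RefSeq, both on GRCm38.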

Additional observations from a re-analysis of the deposited data

How the results depend on the processing

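Over all genes, the edgeR quasi-likelihood test called 0 genes with each other scaling and filter, and limma-voom also called 0. DESeq2 called 709 higher and 410 lower and the edgeR exact test 66 and 39. With WT 1, WT 2, KO 1 and KO 3 the counts were 464 higher and 2244 lower, and with WT 2, WT 3, KO 1 and KO 3, added after seeing the data, 5195 and 5532. Leaving out 1 library at a time gave 0 to 3986 higher and 0 to 4608 lower, the highest without KO 2. Without KO 2, DESeq2 called 4551 and 4657, the exact test 4317 and 4639 and limma-voom 4231 and 4536, all 3 added after seeing the data. For the 161 list genes the counts were 12 higher by DESeq2 and 2 by the exact test, 5 higher and 17 lower with WT 1, WT 2, KO 1 and KO 3, 85 and 22 with WT 2, WT 3, KO 1 and KO 3, and 0 to 58 and 0 to 22 on leaving out 1 library, the highest without KO 2. Without KO 2 they were 74 and 22 by DESeq2, 73 and 23 by the exact test, and 63 and 22 by limma-voom. The log2 fold change of Esm1 was -1.30 to -3.90 on leaving out 1 library, where it passed the threshold without KO 2 (adjusted p = 0.0226). It was -3.02 (0.0425) and -4.19 (0.013) with the sets of 4 libraries, and without KO 2 it was -3.95 (0.000607) by DESeq2, -3.90 (0.000498) by the exact test and -3.64 (0.0263) by limma-voom, adjusted p in brackets. The cause of these differences was not tested.

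Each fold change of the 10 genes was taken again under each alternative that tested the gene. Of these values 171 moved by less than the within-group SD of the gene's log2 levels. Another 7 moved by more, of Pmch, Trh, Sst, Penk and Ttr, always on leaving out libraries. For Avp, Oxt and Ttr that SD was wide, as WT 1 was 103-fold, 261-fold and 457-fold above the lowest WT library. A small move on this measure says little for these genes. The direction turned for Ttr and Trh without WT 1 and for Penk without KO 1. Avp and Oxt did not pass the filter without WT 1, so they have no fold change in that fit. Their log2 ratio of KO to WT means went from -4.84 to 0.12 for Oxt and from -6.39 to -1.65 for Avp. Both values without WT 1 rested on at most 14 counts per library. Scaling by library totals alone moved the median of all genes to -0.17 from -0.02. Same-numbered libraries deviated together in pairs 1 and 2 (r = 0.63 and 0.67) but not in pair 3 (r = -0.27), so the numbers were not taken as pairs. With the replicate number as a block, edgeR called 0 genes (smallest adjusted p 0.065), 3502 higher and 3328 lower at an unadjusted p below 0.05, and the log2 fold change of Esm1 was -2.47. Not every library correlated best with its own number.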

Other observations

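Lists of other brain cells are given as levels, outside any comparison above. Oligodendrocyte genes were highest in KO 1 for 6 of 6 genes, with a sum of 7299 CPM there, 3758 CPM in KO 3, 3109 CPM in KO 2 and 1284 to 3238 CPM in WT. Astrocyte genes summed to 1937 to 2800 CPM in WT and 3114 to 4869 CPM in KO. Endothelial genes summed to 98.6 to 144 CPM in WT and 91.6 to 125 CPM in KO, and microglia and macrophage genes to 493 to 525 CPM in WT, 339 in KO 1, 693 in KO 2 and 320 in KO 3. Ependymal genes ranged from 23.4 to 39.5 CPM over the 6 libraries, and 3 of 7 were highest in WT 1. Without KO 2, edgeR called 1 of 6 oligodendrocyte genes, 3 of 5 astrocyte genes and 1 of 5 endothelial genes higher, 1 astrocyte gene and 3 of 5 microglia genes lower, and no ependymal gene either way. The background in that fit was 24.5% higher and 28.3% lower.

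Thalamic and midbrain genes were at 104 to 175 CPM in WT and 96.6 to 130 CPM in KO. The edgeR fit without KO 2 called 4 of 10 lower and 1 higher (background 28.3% lower and 24.5% higher). Of these Gbx2, a factor of the developing thalamus, was 3.57, 4.29 and 3.60 CPM in WT and 0.513, 2.36 and 0.104 CPM in KO 1, KO 2 and KO 3. Hmx2, a hypothalamic factor, was 2.81, 3.57 and 3.01 CPM in WT, 0.171 in KO 1, 3.16 in KO 2 and 0 in KO 3. Both genes were named after their values were seen. The cause of their low levels in KO 1 and KO 3, which also held the least proliferation RNA, was not tested.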
